A study of Mus musculus with 16 samples.

Results

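Interferon-stimulated and antigen presentation genes were followed on 16 Illumina bead arrays of total RNA, prepared from quadriceps of adult mice of the FVB/n strain. The list holds 53 genes in 3 classes, namely 35 type I effectors, 9 interferon-induced GTPases and 9 genes of the class I antigen presentation pathway. The platform annotation named probes for 50 of them, and a gene was measured where a probe lay above background (detection p under 0.05) on at least 4 arrays, with the brightest such probe standing for the gene. This left 32 of the 53 among 8725 genes measured in all, namely 19 effectors, 6 GTPases and 7 antigen presentation genes.

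The 4 groups held 4 arrays each. Wild-type (WT) mice were given saline, and HSALR transgenic mice were given saline, antisense oligonucleotide (ASO) 445236 or ASO 190401. All 16 samples shared the FVB/n background and subcutaneous injections over 4 weeks, and WT mice given an oligo were not analysed here. In HSALR mice a transgene for human skeletal actin contains an expanded CUG repeat, which models myotonic dystrophy, a disease in which repeat RNA is retained in nuclei. The transgene is expressed in skeletal muscle fibres, so other cells of the tissue carry it without being its main site of expression. The study asked whether antisense oligos can act on such nuclear RNA in living muscle. The labels identify both oligos only by number.

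Type I interferons act on most cell types through a receptor that activates transcription factors binding an element (the ISRE) in the promoters of effector genes. Interferon gamma acts through another element (GAS) and also induces GTPases that attack vacuoles of intracellular pathogens. Both raise the class I pathway, in which the immunoproteasome cuts peptides, a transporter carries them into the endoplasmic reticulum and the class I heavy chain with beta-2-microglobulin presents them. Resting tissue keeps a low level of most of these genes.

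Promoters are shown to describe the genes by sequence, because the arrays themselves give no probe sequence here. RefSeq windows of GRCm38.p6, from 250 bases before to 50 after a transcript start, were matched by symbol for 39 of the 53 genes (43 windows). ISRE-type letters (GAAANNGAAA, either strand) occurred in 21 of the 43 windows (48.8%) and in 3.44% of all 32851 windows. They were in 14 of 27 effector windows, 6 of 7 GTPase windows and 1 of 9 antigen presentation windows. Some windows overlap or lie away from the gene's start, so the shares of the classes are not compared. GAS-type letters (TTCNNNGAA, the same on both strands) occurred in 11 of the 43 windows (25.6%) and in 8.3% of all windows. Both kinds lay in 7 windows and shared bases in 2, those of Bst2 and Ifitm3. A match is a run of letters and not a site shown to be bound. The patterns are exact, so a window without a match may still hold a variant form of either element.

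The 170 bases before a RefSeq transcript start of 6 genes follow, 5′ to 3′ on the gene's strand, with motif letters in capitals. Isg15 (chr4:156200819-156200988, minus strand), Ifit3 (chr19:34583359-34583528, plus strand) and Gbp3 (chr3:142559874-142560043, plus strand) stand for effectors and GTPases whose level moved in the comparisons described next. Igtp (chr11:58199386-58199555, plus strand) holds both kinds of motif, 2 bases apart, and did not pass a test in any comparison. Of the 43 windows 27 are at the annotated start of the gene, while the transcript start used lies 410 bases downstream of it for Ifit3 and 28 for Gbp3. B2m (chr2:122147517-122147686, plus strand) holds an ISRE match and H2-D1 (chr17:35262924-35263093, plus strand) holds no exact match to either pattern.
Isg15: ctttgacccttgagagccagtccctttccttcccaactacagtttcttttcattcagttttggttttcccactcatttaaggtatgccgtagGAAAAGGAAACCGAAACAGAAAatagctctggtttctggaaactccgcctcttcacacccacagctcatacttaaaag
Ifit3: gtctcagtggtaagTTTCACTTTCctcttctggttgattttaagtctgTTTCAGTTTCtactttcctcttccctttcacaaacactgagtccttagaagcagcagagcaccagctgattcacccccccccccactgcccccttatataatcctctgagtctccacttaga
Gbp3: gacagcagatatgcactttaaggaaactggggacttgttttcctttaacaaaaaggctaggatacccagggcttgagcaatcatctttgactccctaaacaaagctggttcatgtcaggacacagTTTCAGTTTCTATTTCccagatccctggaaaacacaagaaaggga
Igtp: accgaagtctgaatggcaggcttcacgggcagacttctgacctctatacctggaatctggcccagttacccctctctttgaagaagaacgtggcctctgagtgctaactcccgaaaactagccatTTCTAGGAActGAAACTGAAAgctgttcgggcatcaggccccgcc
B2m: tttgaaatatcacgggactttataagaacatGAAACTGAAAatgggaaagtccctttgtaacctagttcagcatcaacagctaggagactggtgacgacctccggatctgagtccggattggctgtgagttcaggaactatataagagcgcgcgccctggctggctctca
H2-D1: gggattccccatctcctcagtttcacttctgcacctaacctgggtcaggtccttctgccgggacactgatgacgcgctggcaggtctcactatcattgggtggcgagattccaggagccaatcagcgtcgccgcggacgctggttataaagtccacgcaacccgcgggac
In the Isg15 window 3 ISRE matches overlap into 1 run, and in the Gbp3 window 2 do. Among measured genes, windows of genes that passed the test under both oligos held ISRE letters in 2 of 8 cases, and windows of genes that passed under neither in 7 of 12. The 8 windows came from 6 of 9 genes, with Ifit2 and Gbp3 counted more than once, and the 12 from 12 genes. Usp18, Ifi27l2a and Gm4841 had no window. The starts used lay 144 and 538 bases downstream of the gene's start for Ifit2, 410 for Ifit3 and 98 for Cmpk2. Such windows can miss the sequence before the gene's start, so these shares cannot be compared.

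Between 10835 and 11700 of 25697 probes lay above background on an array, and precision is limited by how many arrays each group holds. Correlations within a group ran from 0.9785 to 0.9921. Whether each array is a separate animal is not in the labels, so a p-value here reflects only how much the arrays of a group vary. HSALR saline and ASO 445236 shared a chip, and WT and ASO 190401 shared the other. The differences ASO 445236 minus HSALR saline and ASO 190401 minus WT could therefore be taken within a chip. For the remaining pairs of groups, chip and group cannot be told apart. A gene is said to rise, fall or be called where its limma p, adjusted over all 8725 genes, was under 0.05. Levels are log2 intensities, and differences are given on the log2 scale with their standard error (SE). In bulk tissue, fewer cells of a type and less RNA per cell cannot be told apart.

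Of the 53 genes, 22 lay above background on all 16 arrays and 10 more on part of them. The 18 annotated genes that were not kept are Ifit1, Oasl1, Oas1a, Oas3, Mx1, Mx2, Ifih1, Dhx58, Xaf1, Trim30a, Trim25, Parp9, Rtp4, Ifitm1, Gbp7, Tgtp1, Tap1 and H2-K1, and Ifi44, Dtx3l and Gbp6 had no annotated probe. A probe not kept was above background on 3 arrays at most. Some kept genes owe their place to the groups in which they are bright. Gm4841 was above background on 2 WT arrays, 1 HSALR saline array and all 8 oligo arrays, and Isg15 on 1 HSALR saline array and all 12 others. Stat2, a subunit of the ISRE-binding complex, and the GTPase gene Iigp1 were above background on 0 HSALR saline arrays.

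**Figure D1:**
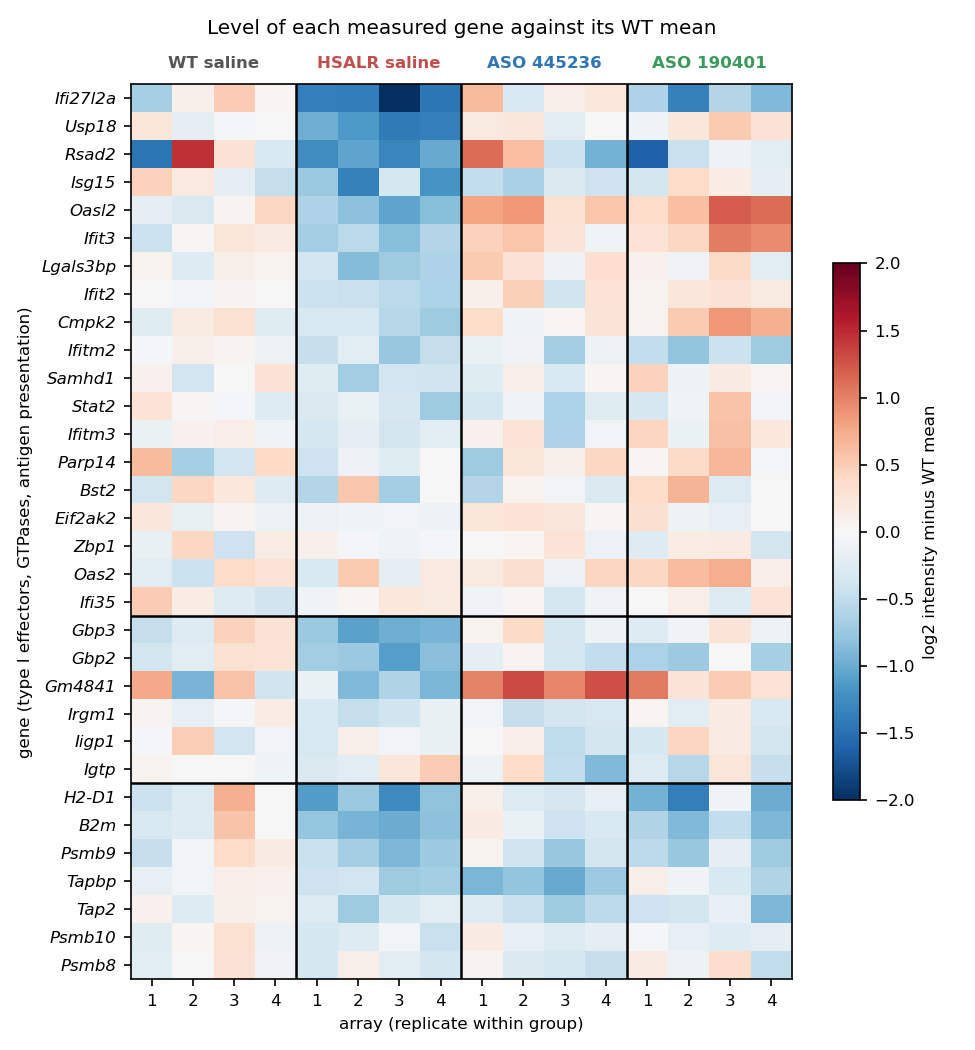
Log2 intensity of each of the 32 measured genes minus its WT mean, by array (columns, 4 per group) and class (rows, separated by black lines). Most effector rows are blue in HSALR saline and near white or red under both oligos, while the antigen presentation rows lie below the WT mean, on average over 4 arrays, under both oligos.

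In saline-treated HSALR muscle the genes stood below WT. Of the 32 measured genes 15 fell and 0 rose, where 13.1% of all 8725 genes fell and 14.1% rose. The median difference was -0.48, against -0.02 over all genes. The falls comprised 8 effectors, 3 GTPases (Gbp2, Gbp3 and Irgm1) and 4 antigen presentation genes (B2m, H2-D1, Psmb9 and Tapbp). Among the 22 genes above background everywhere, 12 fell and 0 rose.

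Under ASO 445236, the comparison within a chip, 12 of the 32 rose above HSALR saline and 0 fell (6.81% and 6.73% of all genes), with a median of 0.30 against 0.01. Under ASO 190401, 12 rose above the same saline arrays and 0 fell (8.09% and 7.71%), with a median of 0.38 against 0.02. Of the 22 genes above background everywhere, 9 rose under ASO 445236 and 8 under ASO 190401. Both comparisons share the HSALR saline arrays, which are also those of the comparison with WT, so the direction of one bears on the others. Under both oligos 9 genes rose, namely Ifit2, Ifit3, Usp18, Oasl2, Ifi27l2a, Lgals3bp, Cmpk2, Gbp3 and Gm4841. All of these but Cmpk2 and Gm4841 had also fallen in HSALR saline. The shares of all genes that rose under both oligos, or fell and then rose, were not counted. These overlaps therefore have no share of all genes to stand beside.

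**Figure D2:**
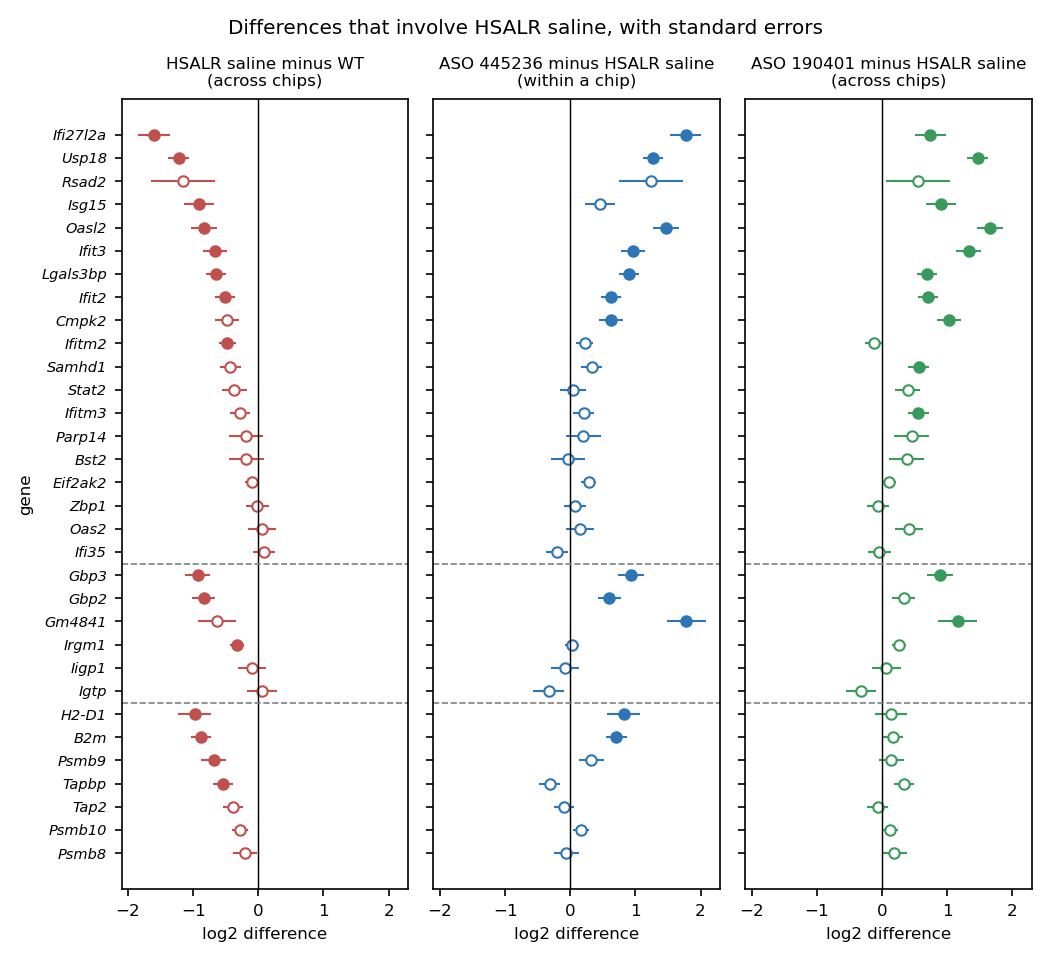
Log2 difference of each of the 32 genes (points, with 1 SE on each side) for HSALR saline minus WT, ASO 445236 minus HSALR saline and ASO 190401 minus HSALR saline. Filled points passed the test, 15 to the left in the first panel and 12 to the right in each of the others, and dashed lines part effectors, GTPases and antigen presentation genes from top to bottom.

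Among the type I effectors, 8 of 19 fell in HSALR saline, 7 rose under ASO 445236 and 10 under ASO 190401. The shares of all genes were 13.1%, 6.81% and 8.09%. Oasl2 encodes a protein of the oligoadenylate synthetase family, which senses double-stranded RNA. Oasl2 levels were 6.26, 6.14, 6.49 and 6.85 on the WT arrays and 5.83, 5.61, 5.38 and 5.59 on the HSALR saline arrays. They were 7.23, 7.31, 6.74 and 6.99 under ASO 445236 and 6.81, 7.04, 7.65 and 7.55 under ASO 190401. The saline arrays lay below all WT arrays, and both oligo groups lay above all saline arrays, with 6 of the 8 oligo arrays above the highest WT array. Oasl2 fell by 0.83 ± 0.20 in HSALR saline (adjusted p = 0.00389) and rose by 1.46 ± 0.20 under ASO 445236 (2.76-fold, adjusted p = 5.4e-05) and by 1.66 ± 0.20 under ASO 190401 (3.16-fold, adjusted p = 1.96e-05). Against WT it was higher by 0.83 ± 0.20 under ASO 190401, within a chip (adjusted p = 0.0111), and by 0.63 ± 0.20 under ASO 445236 (adjusted p = 0.0465). The latter was lost without ASO 445236 replicate 1, 2 or 4 or WT replicate 1, 2 or 3, at adjusted p = 0.0737 to 0.126.

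Usp18 removes the ISG15 modifier from proteins and dampens signalling at the type I receptor. It stood at 7.05, 6.61, 6.79 and 6.80 in WT and at 5.84, 5.67, 5.39 and 5.44 in HSALR saline. Under ASO 445236 it stood at 6.99, 7.03, 6.61 and 6.80 and under ASO 190401 at 6.72, 7.04, 7.33 and 7.10. The saline arrays were set apart from the other 12, which overlapped one another. Usp18 fell by 1.22 ± 0.16 (adjusted p = 1.29e-05), rose by 1.27 ± 0.16 under ASO 445236 (2.41-fold, adjusted p = 2e-05) and by 1.46 ± 0.16 under ASO 190401 (2.76-fold, adjusted p = 5.93e-06). A second kept probe of Usp18 differed by -1.04, 0.68 and 0.46 in these comparisons.

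Ifit3, of the family of tetratricopeptide repeat proteins that bind viral RNA, stood at 6.53, 6.98, 7.21 and 7.12 in WT and at 6.28, 6.41, 6.11 and 6.37 in HSALR saline. It stood at 7.42, 7.52, 7.22 and 6.87 under ASO 445236 and at 7.23, 7.38, 7.99 and 7.90 under ASO 190401. Every ASO 190401 array exceeded every WT array, while the ASO 445236 arrays overlapped WT. The difference from saline was 0.96 ± 0.19 for ASO 445236 (adjusted p = 0.00199) and 1.33 ± 0.19 for ASO 190401 (adjusted p = 0.000115). Against WT, Ifit3 was higher by 0.66 ± 0.19 under ASO 190401 (adjusted p = 0.0303), a call that was lost without WT replicate 1 or 2 or ASO 190401 replicate 3 or 4, at adjusted p = 0.0579 to 0.0971.

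Ifit2, of the same family, varied little within WT, at 5.89, 5.85, 5.95 and 5.90, and stood at 5.46, 5.46, 5.35 and 5.27 in HSALR saline. It stood at 6.0, 6.37, 5.50 and 6.18 under ASO 445236 and at 5.97, 6.13, 6.19 and 6.08 under ASO 190401. All ASO 190401 arrays lay above all WT arrays by a small margin, and ASO 445236 replicate 3 lay close to the saline arrays. Ifit2 rose by 0.63 ± 0.16 (adjusted p = 0.0117) and 0.71 ± 0.16 (adjusted p = 0.00504) under ASO 445236 and ASO 190401. It had fallen by 0.51 ± 0.16 in HSALR saline (adjusted p = 0.0209, and 0.0576 without HSALR saline replicate 4).

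Lgals3bp, a secreted glycoprotein that binds galectins, stood at 7.88, 7.56, 7.93 and 7.89 in WT and at 7.43, 6.96, 7.10 and 7.20 in HSALR saline. The values were 8.35, 8.11, 7.71 and 8.15 under ASO 445236 and 7.90, 7.74, 8.21 and 7.60 under ASO 190401. Only the saline group was set apart from the others. Lgals3bp fell by 0.64 ± 0.15 (adjusted p = 0.00425) and rose by 0.91 ± 0.15 (adjusted p = 0.000547) and 0.69 ± 0.15 (adjusted p = 0.00507) under ASO 445236 and ASO 190401.

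Ifi27l2a, a small interferon-induced membrane protein, was higher under ASO 445236 than under ASO 190401. It stood at 10.53, 11.30, 11.70 and 11.24 in WT and at 9.83, 9.80, 8.98 and 9.75 in HSALR saline. It stood at 11.83, 10.89, 11.32 and 11.41 under ASO 445236 and at 10.58, 9.85, 10.60 and 10.31 under ASO 190401. All ASO 445236 arrays lay above all ASO 190401 arrays, and the ASO 190401 arrays lay between saline and most of WT. The fall in HSALR saline was the greatest of the 32, at -1.60 ± 0.24 (3.03-fold lower, adjusted p = 6.99e-05). The gene rose by 1.77 ± 0.24 under ASO 445236 (3.42-fold, adjusted p = 5.42e-05) and by 0.74 ± 0.24 under ASO 190401 (adjusted p = 0.0426). Leaving out HSALR saline replicate 2, 3 or 4, or replicate 1, 3 or 4 of ASO 190401, ended the call of that last rise (adjusted p between 0.0554 and 0.148).

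Further effectors passed against saline under one or both oligos, but for Cmpk2, Isg15, Ifitm3 and Samhd1 the difference between the oligos itself did not pass (adjusted p = 0.257 to 0.495). Cmpk2, a mitochondrial nucleotide kinase, rose by 0.63 ± 0.19 under ASO 445236 (adjusted p = 0.0314) and by 1.03 ± 0.19 under ASO 190401 (adjusted p = 0.00102), the first lost without ASO 445236 replicate 1 or 4 or HSALR saline replicate 3 or 4 (adjusted p = 0.0795 to 0.0959). Isg15, the ubiquitin-like modifier, fell by 0.91 ± 0.23 in HSALR saline (adjusted p = 0.00614) and rose by 0.90 ± 0.23 under ASO 190401 (adjusted p = 0.0126, and 0.0505 without HSALR saline replicate 2). Under ASO 445236 it differed from saline by 0.45 ± 0.23 (adjusted p = 0.223). Ifitm3, which blocks virus entry at membranes, and Samhd1, which degrades deoxynucleotides, rose under ASO 190401 by 0.56 ± 0.16 each (adjusted p = 0.0213 and 0.0236), and their differences under ASO 445236 were 0.20 ± 0.16 and 0.33 ± 0.16. The Ifitm3 rise was lost without replicate 1 or 3 of either group (adjusted p = 0.0505 to 0.0682), and that of Samhd1 without HSALR saline replicate 2 or ASO 190401 replicate 1 (0.0849 and 0.0856). Ifitm2, a near relative of Ifitm3, fell by 0.48 ± 0.13 in HSALR saline (adjusted p = 0.0113) and was called under neither oligo, at 0.22 ± 0.13 and -0.13 ± 0.13. Members of the Ifitm family are similar in sequence, and whether their probes share signal was not tested.

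The 8 effectors without a call in these 3 comparisons were Oas2, Stat2, Ifi35, Rsad2, Bst2, Parp14, Eif2ak2 and Zbp1, of which Oas2, Bst2 and Stat2 were also below background on part of the arrays. Rsad2, which makes an antiviral nucleotide, had the widest spread, at 5.70, 8.63, 7.45 and 6.86 in WT and 5.91, 6.11, 5.86 and 6.16 in HSALR saline. It stood at 8.27, 7.76, 6.73 and 6.22 under ASO 445236 and at 5.55, 6.71, 7.07 and 6.94 under ASO 190401. The WT arrays alone spanned the saline arrays and the highest oligo array, and the difference of -1.15 ± 0.49 in HSALR saline did not pass (adjusted p = 0.0903). Eif2ak2, the kinase PKR that halts translation on double-stranded RNA, differed by 0.28 ± 0.11 under ASO 445236 (adjusted p = 0.0998).

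**Figure D3:**
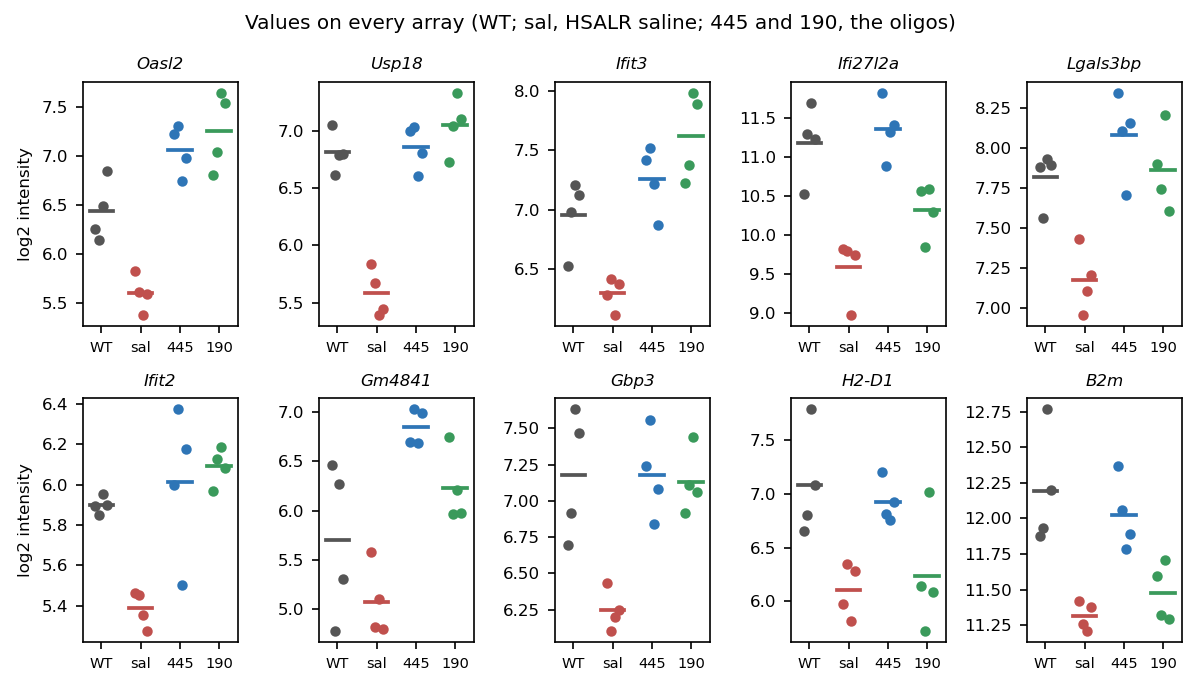
Log2 intensity on every array (points) with the group mean (line) for 6 effectors, 2 GTPases and 2 antigen presentation genes, each on its own axis that does not start at 0. The HSALR saline mean is the lowest in every panel, and the ASO 190401 arrays overlap the saline arrays for H2-D1 and B2m.

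Among the 6 measured GTPases, 3 rose under ASO 445236 and 2 under ASO 190401, beside 6.81% and 8.09% of all genes. Gbp3, a guanylate-binding protein that coats pathogen vacuoles, stood at 6.70, 6.91, 7.63 and 7.47 in WT and at 6.43, 6.10, 6.20 and 6.25 in HSALR saline. It stood at 7.24, 7.56, 6.84 and 7.08 under ASO 445236 and at 6.92, 7.11, 7.44 and 7.06 under ASO 190401. The saline arrays lay below the other 12, which overlapped. Gbp3 fell by 0.93 ± 0.20 (adjusted p = 0.00153) and rose by 0.94 ± 0.20 (adjusted p = 0.00318) and 0.89 ± 0.20 (adjusted p = 0.0047) under ASO 445236 and ASO 190401.

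Gm4841, listed among the GTPases under a gene-model name, stood at 6.46, 4.77, 6.27 and 5.31 in WT and at 5.57, 4.81, 5.10 and 4.79 in HSALR saline. It stood at 6.69, 7.03, 6.69 and 6.99 under ASO 445236 and at 6.75, 5.96, 6.21 and 5.98 under ASO 190401. Every oligo array lay above every saline array, and the ASO 445236 arrays also above every WT array. The fitted rise was 1.78 ± 0.30 under ASO 445236 (adjusted p = 0.000445) and 1.16 ± 0.30 under ASO 190401 (adjusted p = 0.0127). Because 1 of 4 saline and 2 of 4 WT arrays were above background, and the gene was kept through its oligo arrays, these differences are not measured folds. Against WT it was 1.15 ± 0.30 higher under ASO 445236 (adjusted p = 0.0188), lost without WT replicate 2 or 4 (adjusted p = 0.0593 and 0.0575). Gbp2 fell by 0.84 ± 0.18 in HSALR saline (adjusted p = 0.00146) and rose by 0.60 ± 0.18 under ASO 445236 (adjusted p = 0.0289). That rise was lost without ASO 445236 replicate 1 or 2 or HSALR saline replicate 3 or 4, at adjusted p = 0.0598 to 0.0964, and the difference under ASO 190401 was 0.33 ± 0.18. Of the immunity-related GTPases, Irgm1 fell by 0.33 ± 0.11 (adjusted p = 0.0281) through 1 of its probes, the other differing by -0.05. Its call was lost without WT replicate 1 or 4 and without replicate 2 or 3 of HSALR saline (adjusted p = 0.0541 to 0.0889), and Igtp and Iigp1 were not called.

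Of the 7 measured antigen presentation genes 4 fell in HSALR saline, 2 rose under ASO 445236 and 0 under ASO 190401. The shares of all genes were 13.1%, 6.81% and 8.09%. H2-D1, a class I heavy chain, stood at 6.66, 6.81, 7.79 and 7.09 in WT and at 5.97, 6.34, 5.82 and 6.29 in HSALR saline. It stood at 7.21, 6.82, 6.75 and 6.92 under ASO 445236 and at 6.14, 5.72, 7.02 and 6.08 under ASO 190401. The ASO 445236 arrays lay above all saline arrays. Of the ASO 190401 arrays, replicates 1 and 4 lay among the saline arrays, replicate 2 below them and replicate 3 above. H2-D1 fell by 0.98 ± 0.25 (adjusted p = 0.00708) and rose by 0.82 ± 0.25 under ASO 445236 (adjusted p = 0.0373), a rise that leaving out any ASO 445236 array or HSALR saline replicate 1, 3 or 4 took past the threshold (adjusted p = 0.0507 to 0.108). Class I heavy chains are a family of close copies, so its probe may also report others.

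B2m, the light chain shared by class I molecules, was added here after its values were seen. It stood at 11.88, 11.93, 12.77 and 12.20 in WT and at 11.42, 11.26, 11.21 and 11.38 in HSALR saline. It stood at 12.37, 12.06, 11.79 and 11.89 under ASO 445236 and at 11.59, 11.32, 11.71 and 11.29 under ASO 190401. The ASO 445236 arrays overlapped WT, and the ASO 190401 arrays lay below every WT array and overlapped saline. B2m fell by 0.88 ± 0.16 (adjusted p = 0.000415) and rose by 0.71 ± 0.16 under ASO 445236 (adjusted p = 0.00524), and under ASO 190401 it differed from saline by 0.16 ± 0.16 (95% interval -0.17 to 0.49).

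Psmb9, a catalytic subunit of the immunoproteasome, fell by 0.69 ± 0.19 in HSALR saline (adjusted p = 0.0121) and was called under neither oligo. Its companions Psmb8 and Psmb10 and the peptide transporter subunit Tap2 were not called in any of the 3 comparisons. Tapbp (tapasin), which bridges the transporter and class I, had probes that disagreed. The brighter probe fell by 0.55 ± 0.16 in HSALR saline (adjusted p = 0.0145) and was lower than WT by 0.86 ± 0.16 under ASO 445236 (adjusted p = 0.00189). The other probe differed from WT by 0.27 in HSALR saline and by 0.46 under ASO 445236. With the mean of the probes, Tapbp was not called in these comparisons (adjusted p = 0.57 and 0.477).

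Against WT, few genes were called in the muscle of mice given an oligo, and in both directions. In the comparison within a chip, ASO 190401 minus WT, 2 were higher (Oasl2 and Ifit3) and 4 lower (Ifi27l2a, Ifitm2, B2m and H2-D1), beside 5.09% and 5.31% of all genes, with a median of -0.02 against 0.03. B2m was lower than WT by 0.72 ± 0.16 (adjusted p = 0.00671) and Ifitm2 by 0.60 ± 0.13 (adjusted p = 0.00627). With arrays scaled to a common median, B2m, Ifitm2 and Ifi27l2a were not called (adjusted p = 0.0701, 0.0908 and 0.0997). H2-D1 was lower by 0.84 ± 0.25 (adjusted p = 0.0385), lost without WT replicate 3 or 4 or ASO 190401 replicate 1, 2 or 4 (adjusted p = 0.068 to 0.133). Ifi27l2a was lower by 0.86 ± 0.24 (adjusted p = 0.0271), lost without WT replicate 2, 3 or 4 or ASO 190401 replicate 2 or 4 (adjusted p = 0.0554 to 0.101). Leaving out 1 array at a time, between 2 and 7 genes were lower and between 1 and 3 higher. For ASO 445236 minus WT, 2 were higher (Oasl2 and Gm4841) and 1 lower (Tapbp), close to the 6.25% and 5.04% of all genes. Gm4841 was kept through its oligo arrays, and without WT replicate 2 no gene was higher (0).

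**Figure D4:**
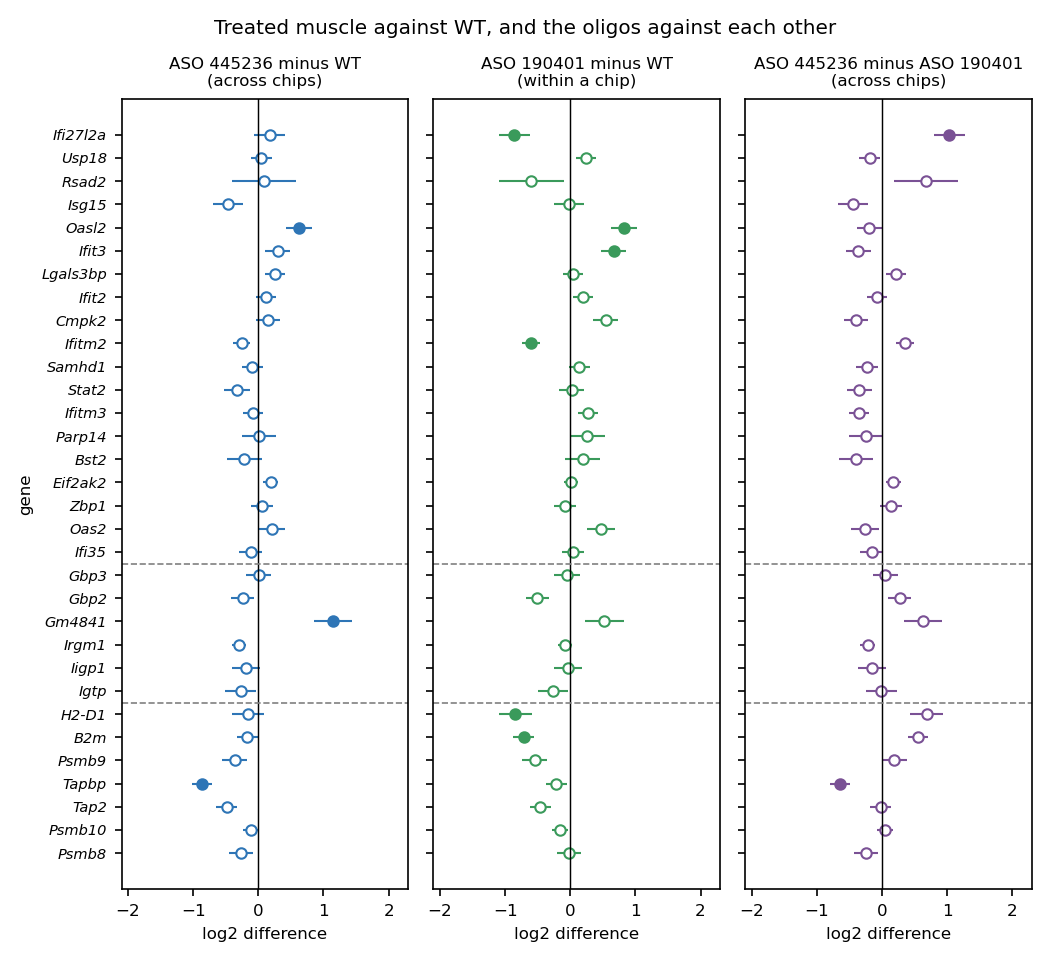
Log2 difference of each of the 32 genes (points, with 1 SE on each side) for each oligo minus WT and for ASO 445236 minus ASO 190401, with filled points for those that passed the test. Filled points lie on both sides of 0 in each panel. Under each oligo all 7 antigen presentation genes, below the lower dashed line, lie left of 0, with Tapbp filled under ASO 445236 and B2m and H2-D1 under ASO 190401.

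The mean of both differences made within a chip (each oligo group minus the saline group on its chip) cancels a constant offset between chips but sets 1 oligo against WT. By it 7 genes rose and 0 fell, beside 4.05% and 3.94% of all genes, and 6 of the 7 were effectors. Of the 22 genes above background everywhere, 4 rose and 0 fell. Oasl2 stood at 1.14 ± 0.14 (adjusted p = 4.46e-05), Ifit3 at 0.81 ± 0.13 (adjusted p = 0.00102), Usp18 at 0.76 ± 0.11 (adjusted p = 0.000336) and Cmpk2 at 0.59 ± 0.13 (adjusted p = 0.01). The second kept Usp18 probe stood at 0.05 here, and the mean of both probes at 0.40 (adjusted p = 0.0116). Gm4841 stood at 1.15 ± 0.21 (adjusted p = 0.0023), but it was kept through its oligo arrays, so its call here is no independent support. Lgals3bp and Ifit2 completed the 7, with Ifit2 lost without HSALR saline replicate 3 or 4, ASO 445236 replicate 2 or 4 or ASO 190401 replicate 2 (adjusted p = 0.0502 to 0.0601). With chip as a block Ifit2 and Lgals3bp were not called (adjusted p = 0.0716 and 0.094). No antigen presentation gene passed (0), with B2m and H2-D1 at 0.00 ± 0.11 and -0.01 ± 0.18. These means join called differences of opposite sign, which cancel. B2m stood at 0.71 for ASO 445236 minus HSALR saline and at -0.72 for ASO 190401 minus WT, and H2-D1 at 0.82 and -0.84.

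Set against each other, the oligos differed for 2 of the 32 genes, beside 1.95% of all genes higher and 1.07% lower under ASO 445236. Ifi27l2a was higher under ASO 445236 by 1.03 ± 0.24 (95% interval 0.53 to 1.54, adjusted p = 0.0228), and the brighter Tapbp probe was lower by 0.65 ± 0.16 (adjusted p = 0.0301). The other kept Tapbp probe went the opposite way, higher by 0.63, and with the mean of the probes Tapbp was not called. Both calls were lost when single arrays were left out, that of Ifi27l2a at adjusted p up to 0.0962 and that of Tapbp at up to 0.102. B2m differed by 0.55 ± 0.16 (95% interval 0.22 to 0.88, adjusted p = 0.0707) and H2-D1 by 0.68 ± 0.25 (0.16 to 1.21, adjusted p = 0.162). Oasl2 (-0.61 to 0.22), Usp18 (-0.52 to 0.14) and Gbp3 (-0.36 to 0.46) had intervals that include 0. Doses were not used here, and all these arrays were compared across chips.

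Averaged over a class and set against the WT mean, the effectors stood at -0.52 ± 0.08 (SD, n = 4 arrays) in HSALR saline, at 0.04 ± 0.14 under ASO 445236 and at 0.09 ± 0.14 under ASO 190401. The GTPases stood at -0.46, 0.02 and -0.07. The antigen presentation genes stood at -0.57 ± 0.06, -0.34 ± 0.19 and -0.42 ± 0.23, beside a WT spread of 0.26. The effector and GTPase arrays of both oligo groups overlapped WT and lay above all saline arrays. The antigen presentation means lay between saline and WT, with arrays that overlapped both. These arrays ran from -0.55 to -0.09 under ASO 445236 and from -0.68 to -0.16 under ASO 190401. HSALR saline ran from -0.64 to -0.51 and WT from -0.25 to 0.35.

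**Figure D5:**
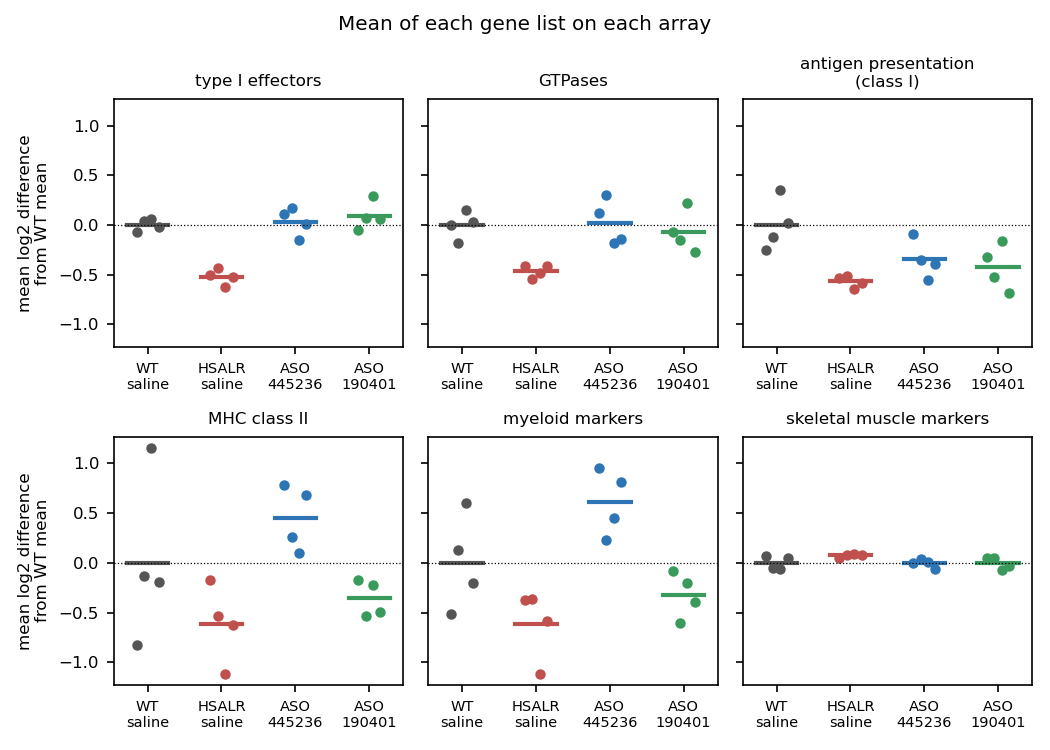
Mean log2 difference from the WT mean over the measured genes of a list, by array (points) and group (line is the mean of 4 arrays). Effectors and GTPases are low in HSALR saline alone, whereas the myeloid and MHC class II arrays of ASO 190401 overlap both WT and HSALR saline, and those of ASO 445236 lie above all HSALR saline arrays and overlap WT.

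Myeloid cells express many of these genes, and their markers moved too. Of 12 measured myeloid markers (19 listed) 9 rose under ASO 445236 and 1 under ASO 190401 against HSALR saline, with medians of 1.09 and 0.28, and leaving out single arrays gave 7 to 10 and 1 to 2. In HSALR saline 2 of the 12 were lower than WT, near the 13.1% of all genes, and up to 7 with an array left out. Against saline, 6.81% of all genes rose under ASO 445236 and 8.09% under ASO 190401. Adgre1, a receptor gene of mature macrophages, rose by 2.0 ± 0.31 under ASO 445236 (adjusted p = 0.00023), and Ms4a7 by 2.58 ± 0.30 under ASO 445236 and 1.42 ± 0.30 under ASO 190401. The summed intensity of the list was 2083 to 4903 in WT, 1447 to 2674 in HSALR saline, 4618 to 7027 under ASO 445236 and 2287 to 3322 under ASO 190401. The list's mean lay at -0.61 in HSALR saline, 0.62 under ASO 445236 and -0.32 under ASO 190401. The ASO 190401 arrays, at -0.60 to -0.09, overlapped the WT arrays, at -0.52 to 0.60, and 2 of the 12 markers were lower than WT. Under ASO 445236, 5 of the 12 were higher than WT and 0 lower, beside 6.25% and 5.04% of all genes. Set against ASO 190401, 8 were higher under ASO 445236, beside 1.95% of all genes. The last 2 comparisons were made across chips. Between the oligos, the calls of Adgre1 and Ms4a7 were lost without single arrays (adjusted p up to 0.0825 and 0.139). The part of myeloid cells in the rise under ASO 445236 was not tested.

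MHC class II genes, which load peptides in antigen-presenting cells, rose in 3 of 4 measured cases under ASO 445236 (8 listed) and in 0 under ASO 190401, and without HSALR saline replicate 3 in 1 case under ASO 445236. H2-Ab1 rose by 1.34 ± 0.35 (adjusted p = 0.0142, and 0.0535 without HSALR saline replicate 3) and Cd74 by 1.30 ± 0.32 (adjusted p = 0.0113). WT replicate 3 stood apart, with a class II mean of 1.16 above the WT mean and the highest B2m and H2-D1 of its group; without it 15 genes were still lower in HSALR saline. Of 16 lymphocyte markers 2 were measured and 0 called against saline, and of 7 dendritic cell markers 1 was measured, so the arrays say little of those cells. Endothelial markers stood at -0.67 and -0.55 under ASO 445236 and ASO 190401 against -0.08 in HSALR saline. Of the 9 measured, 6 fell in the mean of the within-chip differences (2 to 9 with an array left out), beside 3.94% of all genes. Against WT 4 were lower under ASO 445236 and 3 under ASO 190401 (0 to 7 and 0 to 4), and against saline 1 and 0 (0 to 6 and 0 to 2). Of all genes, 5.04% and 5.31% were lower against WT, and 6.73% and 7.71% against saline. The part of endothelial cells in the results was not tested. The skeletal muscle markers moved both ways within a mean at most 0.07 from WT. Of 10 measured, 2 were higher and 1 lower in HSALR saline, and 1 rose and 2 fell under each oligo against saline. The shares of all genes higher and lower were 14.1% and 13.1% in HSALR saline. They were 6.81% and 6.73% under ASO 445236 and 8.09% and 7.71% under ASO 190401. Counts this small cannot be told from such shares. Myh1, a fast myosin heavy chain, differed by 0.77 in HSALR saline and by -0.83 and -0.74 under ASO 445236 and ASO 190401, and Acta1 was not called.

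Of the signalling genes upstream, Irf7 and Nlrc5 were not measured. Irf9, a DNA-binding subunit of the factor that acts at the ISRE, rose under ASO 190401 by 0.57 ± 0.16 (adjusted p = 0.0254, up to 0.0798 without replicate 2 or 3 of either group). Of 10 interferon genes listed only Ifna1 was measured, and it was not called. Of 7 measured receptors and kinases 0 rose and 1 fell under ASO 445236 (Ifngr2, a chain of the gamma receptor, at -0.56 ± 0.09), and 0 were called under ASO 190401. Of all genes 6.81% rose and 6.73% fell under ASO 445236. Of 9 nucleic acid sensors and adaptors 0 were called under either oligo against saline, and at most 1 with an array left out.

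Among the transcription factors, Irf5, which acts downstream of Toll-like receptors, moved opposite to the effectors. It rose by 2.28 ± 0.15 in HSALR saline (adjusted p = 1.59e-09) and fell by 1.49 ± 0.15 under ASO 445236 and by 2.0 ± 0.15 under ASO 190401. Irf1, an activator of class I genes, fell by 0.72 ± 0.16 in HSALR saline (adjusted p = 0.00307), and Irf8 fell by 0.55 ± 0.15 and rose by 0.51 ± 0.15 under ASO 445236, the rise being lost without HSALR saline replicate 2, 3 or 4 or ASO 445236 replicate 3 or 4. Socs3, an inhibitor of cytokine signalling, rose by 0.56 ± 0.16 in HSALR saline and fell by 0.53 ± 0.16 and 0.95 ± 0.16 under ASO 445236 and ASO 190401, the first lost without ASO 445236 replicate 1 or 4 or HSALR saline replicate 1, 2 or 4 (adjusted p up to 0.102).

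Of 9 other measured antigen presentation genes 5 fell in HSALR saline and 0 rose, and 3 fell without WT replicate 3 or 4, or without replicate 2 of HSALR saline. Of all genes 13.1% fell and 14.1% rose in HSALR saline. The class I-like genes H2-T23 and H2-M3 fell by 1.25 ± 0.22 and 0.78 ± 0.18. Psme1, a subunit of the proteasome activator that interferon gamma induces, fell by 0.53 ± 0.11 (adjusted p = 0.00124) and rose by 0.46 ± 0.11 and 0.47 ± 0.11 under ASO 445236 and ASO 190401. Psmb5 and Psmb7, the constitutive proteasome subunits that Psmb8 and Psmb10 replace, fell by 0.48 ± 0.15 and 0.30 ± 0.10 in HSALR saline and rose under ASO 190401 by 0.64 ± 0.15 and 0.40 ± 0.10. The Psmb7 rise was lost without HSALR saline replicate 3 or ASO 190401 replicate 4 (adjusted p up to 0.0522). Both falls were lost without WT replicate 2, and without replicate 3 or 4 of HSALR saline, and at most 1 of them passed without any other array of these groups. In HSALR saline, then, 2 of 3 constitutive subunits and 1 of 3 inducible ones (Psmb9) were called lower.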

How the data were processed

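Each probe and array has an intensity and a detection p-value in the deposited non-normalized table, per the file headers. Between 6907 and 7499 intensities per array were below 0, so background had been subtracted before deposit, and 60 cells were not numbers, 0 of them in the genes described. The authors' deposited processed matrix holds linear intensity with array medians of 26.4 to 26.5. The submitters' processing notes name affy without a role, and the matrix was an alternative here.

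The limma package 3.58.1 (R 4.3.3) served for normexp background correction from the detection p-values (offset 16), quantile normalization of the deposited intensity values and a log2 transform. Of the probes kept (12364), 684 had no gene name, and 2188 of the 8725 genes had several probes. A mean per group was fitted over 16 arrays (12 residual degrees of freedom), with an intensity trend, two-sided tests and Benjamini-Hochberg adjustment at 0.05 in each of 7 comparisons. The fit was tested on simulated data. SE and SD follow ±.

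Members, lists and tests were chosen with earlier results of these data known. Values on every array are given for the members of each class that rose under both oligos (at most 6, 3 and 3, by the smaller difference) and for the member of each class with the largest difference between oligos. Those of B2m and Rsad2 are given in addition, outside this rule. Other members are named by comparison. Supporting genes came from fixed lists of interferon signalling, antigen presentation and cell type markers, a part of which is printed. Symbols of the platform annotation were looked up in RefSeq GRCm38.p6 and 0 changed. Alternatives changed the normalization, the source of the values, the offset (50), the detection filter, the probe rule, the variance trend, the position on the chip, the arrays fitted and the chip as a block, and left out each array (for the supporting genes chosen after seeing the data).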

Additional observations from a re-analysis of the deposited data

Results flagged for a closer look

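In 5 of the 128 sets of 4 arrays tested (32 genes in 4 groups), 1 array stood far from the others, where chance gives about 1 in 20. Ifi27l2a on HSALR saline replicate 3 was low at 8.98, beside 9.75 to 9.83 on the others. Lgals3bp on WT replicate 2 was low at 7.56 (others 7.88 to 7.93), and Tap2 on the same array was low at 7.15 (others 7.47 to 7.51). Ifitm2 under ASO 445236 replicate 3 was low at 9.87 (others 10.44 to 10.50). Gbp2 under ASO 190401 replicate 3 was high at 8.95 (others 8.23 to 8.32).

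The effects of the oligos against the same saline arrays differed by test for 2 genes, made across chips. The difference was 1.03 for Ifi27l2a (adjusted p = 0.0228) and -0.65 for the brighter Tapbp probe (adjusted p = 0.0301). The other kept Tapbp probe differed by 0.63.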

How the results depend on the processing

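No paired analysis was possible because the replicate numbers follow accession order and pair no samples. No result reversed. Over the settings that keep all arrays of the groups compared, 13 to 16 genes were lower in HSALR saline than in WT (15 as reported). Against saline 9 to 16 were higher under ASO 445236 and 8 to 14 under ASO 190401 (12 each as reported), the fewest with detection on all arrays, where fewer genes are tested, and the most with median scaling. The 0 lower under ASO 190401 became 1 without the detection filter. Scaling to a common median moved the median of all genes by 0.15 to 0.16 in the comparisons of an oligo with saline or WT, against which the genes' medians were 0.48 and 0.45 (ASO 445236 and ASO 190401 minus saline), 0.06 and 0.08 (minus WT) and 0.26 (within chips). All genes then split into 1530 higher and 257 lower (ASO 445236) and 1943 and 296 (ASO 190401) against saline, into 1455 and 164 and into 1808 and 282 against WT, and into 2626 and 156 within chips. Under it 12 members rose within chips in place of 7, and ASO 190401 minus WT had 4 higher and 1 lower (B2m, Ifitm2 and Ifi27l2a lost, adjusted p = 0.0701, 0.0908 and 0.0997).

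In ASO 445236 minus WT the 2 higher became 0 with the authors' values and 1 without the filter, with detection on all 16 arrays, without the trend and with chip position, and the 1 lower became 0 with the mean of probes. In ASO 190401 minus WT 1 was higher with chip 2 alone (Ifit3 at adjusted p = 0.0776), and 2 were lower without the trend and with chip position. Between the oligos the 1 lower became 0 with the authors' values, without the filter, with detection on all arrays, with the mean of probes and with chip position.

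Leaving out single arrays gave 14 to 17 lower in HSALR saline, 9 to 12 higher under each oligo, 6 to 9 higher within chips, 0 to 2 higher and 1 to 3 lower for ASO 445236 minus WT, 1 to 3 higher and 2 to 7 lower for ASO 190401 minus WT, and 0 to 2 higher and 0 to 1 lower between the oligos. Over the single genes, 44 values gained a call and 106 lost one, and 3716 results and settings kept their side of the threshold. For genes below background on part of the arrays (10 of 32), differences that rest on those arrays are not measured folds.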
